A study of Mus musculus with 8 samples.

Results

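*Txnip* and 9 genes related to it by family or pathway, 10 of the 39089 genes in the count tables, were followed across WT and *Arid1a* KO prostate tumors given vehicle or JSH-23. The genes were selected by symbol: *Txnip*, the alpha-arrestins *Arrdc1* to *Arrdc4*, the glucose-sensing transcription factors *Mlxip* (MondoA) and *Mlxipl* (ChREBP), their partner *Mlx*, and the thioredoxins *Txn1* and *Txn2*. *Txnip* itself had been singled out by its response in an earlier analysis of the same counts. Its values are therefore given as a description without a test. The others entered by family or pathway, but with earlier results of these data known, so their tests are not independent of that choice.

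The tumors were grown from Myc-CaP, a line of mouse prostate carcinoma cells with a MYC transgene. The cells carried a control vector (Myc-CaP EV, called WT) or a guide RNA directed at *Arid1a* (Myc-CaP Arid1a KO), a subunit of the SWI/SNF chromatin remodelling complex, and were inoculated under the skin of male FVB mice aged 6 weeks. From day 16 the hosts received JSH-23, an inhibitor of NF-κB nuclear translocation, by daily gavage for 2 weeks, or the corn oil vehicle. Cells sorted as EpCAM+ and CD45- were sequenced in 4 groups of 2 samples, namely WT with vehicle, *Arid1a* KO with vehicle, WT with JSH-23 and *Arid1a* KO with JSH-23. Each genotype came from a lentivirally transduced culture selected with a drug, and every sample shared the Myc-CaP background and a host with an intact immune system.

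Alpha-arrestins are adaptor proteins that carry arrestin folds and PY motifs, through which most of them recruit ubiquitin ligases of the NEDD4 family to membrane cargo. *Txnip* differs from the other family members in binding the active site of reduced thioredoxin, and it also promotes the internalization of glucose transporters. *Txnip* and *Arrdc4* are the best known targets of MondoA, which pairs with Mlx, senses glucose 6-phosphate and binds carbohydrate response elements in promoters; ChREBP does the same chiefly in liver and fat. Thioredoxin 1 in the cytosol and nucleus and thioredoxin 2 in mitochondria reduce protein disulfides.

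The 250 bases upstream of the annotated start are shown for the 4 alpha-arrestin genes with the largest changes, because MondoA is known to act on *Txnip* and *Arrdc4* through carbohydrate response elements near the start. The sequences are those of RefSeq on GRCm38.p6, 5′ to 3′ on the strand of the gene, at chr3:96557707-96557956 (+) for *Txnip*, chr13:80883134-80883383 (+) for the first annotated start of *Arrdc3*, chr7:68749239-68749488 (-) for *Arrdc4* and chr8:70839721-70839970 (-) for *Arrdc2*. Capitals mark matches on either strand to the carbohydrate response element (CANGNG and CNCNNG separated by any 5 bases), the E-box CACGTG and CCAAT; none of the matches overlap.
Txnip: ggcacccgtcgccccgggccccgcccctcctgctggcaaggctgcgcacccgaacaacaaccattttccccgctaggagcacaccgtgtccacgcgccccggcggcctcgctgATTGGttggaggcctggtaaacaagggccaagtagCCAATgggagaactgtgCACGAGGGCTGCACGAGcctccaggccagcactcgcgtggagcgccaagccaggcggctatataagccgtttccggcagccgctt
Arrdc3: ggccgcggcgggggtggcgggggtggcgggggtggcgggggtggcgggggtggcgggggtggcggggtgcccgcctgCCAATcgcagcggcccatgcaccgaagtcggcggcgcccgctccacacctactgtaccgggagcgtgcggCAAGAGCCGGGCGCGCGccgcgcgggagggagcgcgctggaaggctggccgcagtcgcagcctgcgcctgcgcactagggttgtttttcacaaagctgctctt
Arrdc4: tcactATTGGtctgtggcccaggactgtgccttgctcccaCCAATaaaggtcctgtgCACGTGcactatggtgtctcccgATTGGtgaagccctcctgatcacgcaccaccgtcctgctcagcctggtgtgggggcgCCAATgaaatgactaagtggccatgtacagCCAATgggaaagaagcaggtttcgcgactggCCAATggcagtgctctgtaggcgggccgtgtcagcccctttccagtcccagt
Arrdc2: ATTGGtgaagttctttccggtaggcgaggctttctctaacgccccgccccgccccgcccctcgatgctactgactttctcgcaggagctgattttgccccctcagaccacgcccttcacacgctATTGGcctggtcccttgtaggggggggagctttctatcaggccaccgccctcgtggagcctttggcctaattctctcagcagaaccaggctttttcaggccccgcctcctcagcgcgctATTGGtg

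The *Txnip* promoter held a match to the carbohydrate response element beginning at -85 from the start, next to a CCAAT box at -102 and another, on the opposite strand, at -137. In *Arrdc3* a match to the same degenerate pattern began at -103. The pattern was found in 3.95% of 32851 RefSeq promoter windows of this length. The *Arrdc4* window had no match to it but contained an E-box at -193, a sequence found in 6.02% of windows, and 6 CCAAT boxes; 33.8% of windows had at least 1 CCAAT box and 2.79% had 3 or more. *Arrdc2* had neither a carbohydrate response element nor an E-box, and 3 CCAAT boxes. Promoter windows were found for all 10 genes. Among those not printed, *Mlx* and *Mlxipl* each had an E-box match, while *Arrdc1*, *Mlxip*, *Txn1* and *Txn2* matched neither of the longer patterns. Another annotated start of *Arrdc3* (window chr13:80885845-80886094) had no match to any pattern. A window overlapping the printed one (chr13:80883172-80883421) held the same carbohydrate response element match, there beginning at -141. A match describes letters in a window and is not evidence of binding.

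Total counts ran from 16401581 to 21972231 per sample, so that 3 counts, taken as the lowest level told from 0, corresponded to between 0.137 and 0.183 CPM (counts scaled to library size). *Arid1a* was at 158 ± 4.03 CPM (SD, n = 2) for WT and 104 ± 2.13 CPM for *Arid1a* KO under vehicle, and at 150 ± 7.72 and 94.8 ± 1.49 CPM under JSH-23. Transcripts were thus still detected in the *Arid1a* KO samples, and the reason was not tested. The samples of a group were close, at a biological coefficient of variation (common to all genes) of 1.61% and a chi-square per degree of freedom of 1.46 to 1.57 between the 2 samples. The sources used here do not say whether they came from separate tumors, so p-values measure the spread between these samples only, which may be technical. The markers of the sort did not match it well, since *Epcam* lay between 0 and 0.194 CPM, *Krt18* and *Cdh1* were below 1 CPM in every sample, and *Krt8* was at 32.8 to 112 CPM. *Ptprc*, which encodes CD45, lay between 0 and 0.558 CPM. The 9 leukocyte markers summed to 13.1 to 13.3 CPM for WT and 3.42 to 4.06 CPM for *Arid1a* KO under vehicle, and to 5.47 to 13.8 and 2.83 to 4.05 CPM under JSH-23. The 4 fibroblast markers, mostly *Pdgfra*, summed to 41.1 to 64.5 CPM with the lowest values in *Arid1a* KO tumors with JSH-23. *Pdgfra* was at 38.0 and 38.4 CPM there and at 60.2 and 61.2 CPM in *Arid1a* KO with vehicle. The others overlapped between these groups. *Col1a1* was at 2.32 and 1.73 against 1.49 and 1.89 CPM, *Col1a2* at 1.30 and 0.24 against 1.27 and 0.82 CPM. *Dcn* was at 0.54 and 0.72 against 0.61 and 0.53 CPM. The part of these cells in the results was not tested, and in bulk RNA fewer cells of a type and less RNA per cell cannot be told apart.

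*Txnip* (chr3:96557957-96561857, plus strand, GRCm38) had the highest average level of the 10 genes. By length-corrected level it averaged 816 TPM (counts scaled to gene length and library size) over the 8 samples, and it ranked 95 of 13921 tested genes in *Arid1a* KO tumors with vehicle, 167 in WT tumors with vehicle, 239 for WT under JSH-23 and 290 for *Arid1a* KO under JSH-23. Its counts scaled to library size gave 847 and 861 CPM for WT under vehicle. In *Arid1a* KO tumors with vehicle they gave 1772 and 1755 CPM. With JSH-23 the samples were at 564 and 553 CPM for WT and at 528 and 537 CPM in *Arid1a* KO tumors. The order was therefore *Arid1a* KO with vehicle, WT with vehicle, WT with JSH-23 and *Arid1a* KO with JSH-23. No groups overlapped, but the last 2 neighbours lay close together.

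Fold changes were taken from edgeR's quasi-likelihood fit over all 8 samples, and a gene was called where the Benjamini-Hochberg adjusted p over the 13921 tested genes was under 0.05 and the change at least 1.5-fold. The comparison of genotypes with vehicle, the JSH-23 effect in *Arid1a* KO tumors and the interaction share the *Arid1a* KO vehicle samples, so their values are given side by side. On the log2 scale *Txnip* was 1.05 higher (SE 0.016, 2.07-fold) in *Arid1a* KO than in WT tumors with vehicle. JSH-23 was associated with a difference of -1.73 (SE 0.017, 3.31-fold lower) in *Arid1a* KO tumors and of -0.61 (SE 0.017, 1.53-fold lower) in WT tumors. Between genotypes with JSH-23 the difference was -0.07 (SE 0.018), and the JSH-23 effect in *Arid1a* KO differed from that in WT by -1.11 (SE 0.024). Across all alternative ways of processing, the difference between genotypes with vehicle stayed between 1.03 and 1.07, the JSH-23 effect in *Arid1a* KO between -1.97 and -1.70, and the difference between genotypes with JSH-23 between -0.26 and -0.05.

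**Figure D1:**
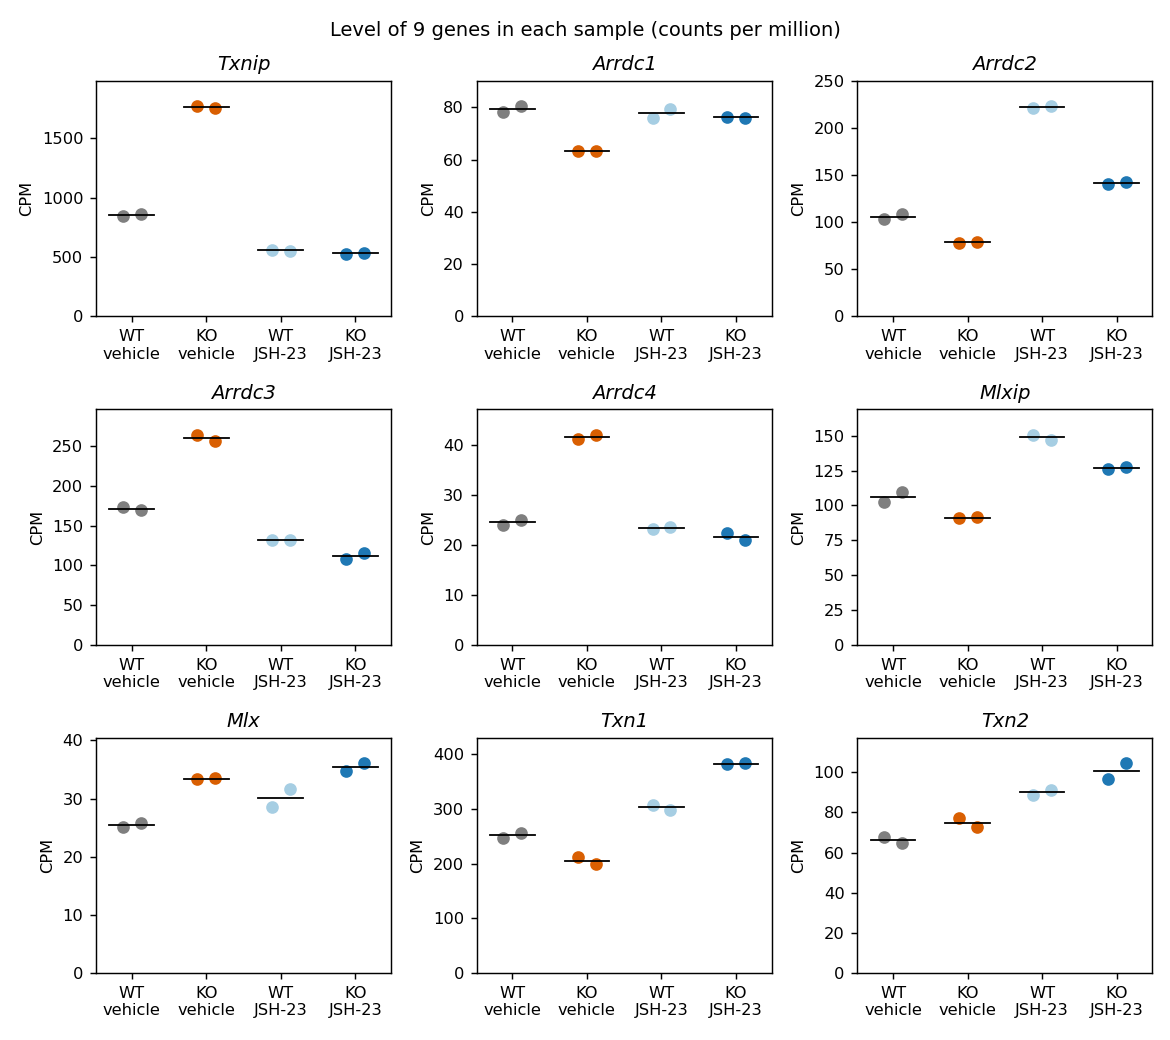
Level of *Txnip*, the alpha-arrestins *Arrdc1* to *Arrdc4*, *Mlxip*, *Mlx*, *Txn1* and *Txn2* in CPM (linear axes from 0), with a point for each of the 2 samples of a group and a line at the group mean. *Txnip*, *Arrdc3* and *Arrdc4* stood highest in *Arid1a* KO tumors with vehicle (1763, 260 and 41.7 CPM on average), where *Arrdc2*, *Mlxip* and *Txn1* stood lowest (78.9, 91.2 and 205 CPM).

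The *Txnip* locus also contains *Gm15441*, a long non-coding RNA on the opposite strand (chr3:96555768-96566801) that shares 606 exonic bases with *Txnip* in GENCODE M21. It was examined after its values had been seen, and is likewise described without a test. *Gm15441* was at 93.5 ± 2.21 CPM (SD, n = 2) for WT and 197 ± 1.85 CPM for *Arid1a* KO under vehicle, and at 59.2 ± 3.11 and 58.4 ± 3.63 CPM under JSH-23. Its counts came to between 10.3% and 11.3% of those of *Txnip* in every sample. Reads were counted by strand, and whether reads of *Txnip* reached the antisense gene was not tested.

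*Arrdc3* and *Arrdc4* followed the direction of *Txnip*. *Arrdc3* (chr13:80883384-80896042), an adaptor known for the ubiquitination of β2-adrenergic receptors and integrin β4, was at 173 and 169 CPM for WT under vehicle and at 264 and 256 CPM for *Arid1a* KO under vehicle. With JSH-23 its level was 132 and 131 CPM for WT and 108 and 115 CPM in *Arid1a* KO tumors. The *Arid1a* KO samples were thus the highest without and the lowest with JSH-23, with no overlap between groups. *Arrdc3* rose in *Arid1a* KO over WT tumors with vehicle by 0.61 on the log2 scale (SE 0.030, edgeR adjusted p = 3.29e-28), just past the 1.5-fold threshold, which it missed (0.58) without the first *Arid1a* KO vehicle sample. With JSH-23 it fell by 1.22 in *Arid1a* KO tumors (SE 0.031, edgeR adjusted p = 4.07e-45) and by 0.37 in WT tumors (SE 0.034, edgeR adjusted p = 1.40e-15), the second below 1.5-fold. The effects of JSH-23 differed between genotypes by -0.85 (SE 0.046, edgeR adjusted p = 2.34e-25 for the interaction).

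*Arrdc4* (chr7:68736994-68749238), the closest relative of *Txnip* in its regulation by MondoA, was less abundant. It was at 24.0 and 25.1 CPM for WT under vehicle, 41.3 and 42.1 CPM for *Arid1a* KO under vehicle, 23.2 and 23.6 CPM for WT under JSH-23, and 22.4 and 20.9 CPM for *Arid1a* KO under JSH-23. The *Arid1a* KO vehicle samples stood apart from the other 6, which lay between 20.9 and 25.1 CPM. The rise in *Arid1a* KO tumors with vehicle was 0.77 on the log2 scale (SE 0.073, edgeR adjusted p = 1.25e-14), and the fall with JSH-23 in these tumors was -0.95 (SE 0.072, edgeR adjusted p = 4.38e-19). In WT tumors the difference with JSH-23 was -0.07 (95% interval -0.23 to 0.09, edgeR adjusted p = 0.490), and between genotypes with JSH-23 it was -0.11 (95% interval -0.27 to 0.05, edgeR adjusted p = 0.271). The difference between genotypes with JSH-23 ran from -0.30 to -0.05 over all alternative ways of processing, under 1.5-fold throughout. Whether its adjusted p passed depended on the alternative. Mean levels there were 14.5 TPM for WT and 11.8 TPM for *Arid1a* KO. The interaction was -0.88 (SE 0.11, edgeR adjusted p = 4.24e-10).

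*Arrdc2* (chr8:70835129-70839720) moved against *Txnip*. This alpha-arrestin was at 103 and 109 CPM for WT under vehicle and at 78.6 and 79.2 CPM for *Arid1a* KO under vehicle. With JSH-23 it reached 222 and 224 CPM for WT and 141 and 143 CPM in *Arid1a* KO tumors, so that both JSH-23 groups lay above both vehicle groups. *Arrdc2* rose with JSH-23 by 1.07 on the log2 scale in WT (SE 0.034, edgeR adjusted p = 2.01e-39) and by 0.85 in *Arid1a* KO tumors (SE 0.036, edgeR adjusted p = 4.85e-32). *Arid1a* KO differed from WT by -0.43 with vehicle (edgeR adjusted p = 3.13e-15), which is under 1.5-fold, and by -0.65 with JSH-23 (edgeR adjusted p = 1.02e-28). The interaction of -0.22 passed the p threshold (edgeR adjusted p = 2.19e-04) but not 1.5-fold.

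*Arrdc1* (chr2:24925352-24935335), which takes part in the budding of vesicles from the plasma membrane, varied least among the alpha-arrestins. Its samples lay between 75.9 and 80.5 CPM in 3 groups and at 63.2 CPM in both *Arid1a* KO vehicle samples. The difference of -0.33 in *Arid1a* KO tumors with vehicle (edgeR adjusted p = 8.40e-09) and that of 0.27 with JSH-23 in *Arid1a* KO tumors (edgeR adjusted p = 4.28e-07) were both under 1.5-fold. The latter was 0.16 when scaled to library size alone and 0.03 with limma on log2(TPM + 1), where it did not pass (adjusted p = 0.391). With JSH-23 the genotypes differed by -0.03 (95% interval -0.12 to 0.06, edgeR adjusted p = 0.647).

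**Figure D2:**
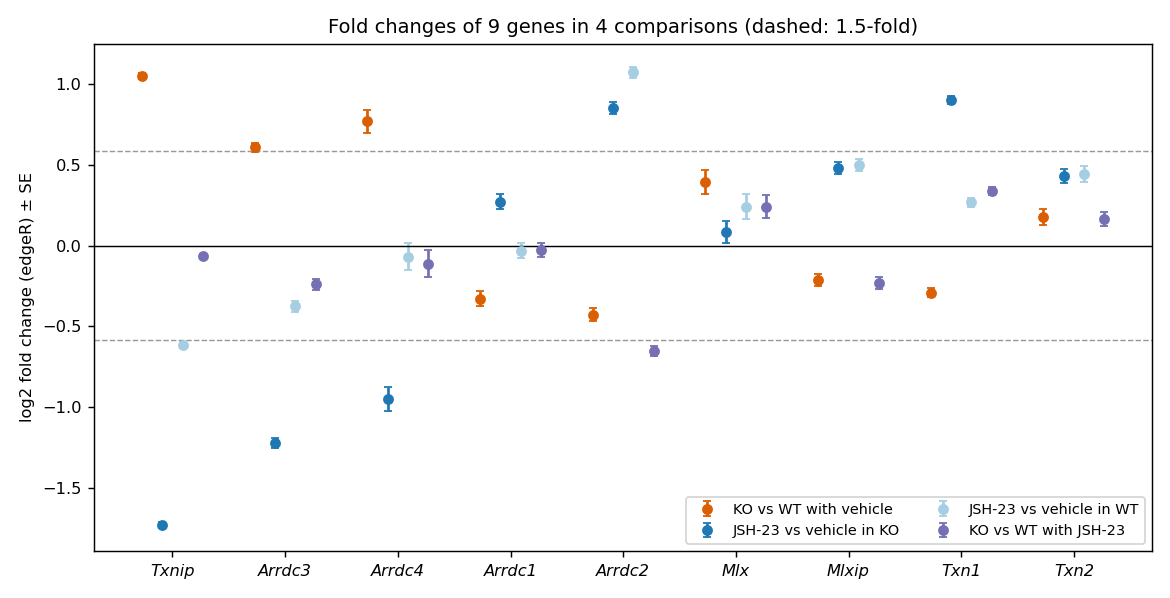
Log2 fold change (edgeR, bars show the standard error) of the 9 genes that passed the filter, in colours for the 4 pairwise comparisons, with dashed lines at 1.5-fold. With vehicle *Txnip*, *Arrdc4* and *Arrdc3* lay above the upper line in *Arid1a* KO against WT (1.05, 0.77 and 0.61) and with JSH-23 against vehicle in *Arid1a* KO below the lower line (-1.73, -0.95 and -1.22), while *Arrdc2* and *Txn1* rose with JSH-23 in *Arid1a* KO (0.85 and 0.90).

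Neither *Mlxip* nor *Mlx* passed 1.5-fold in any comparison. *Mlxip* (chr5:123394521-123457932), encoding MondoA, was at 102 and 109 CPM for WT and 90.9 and 91.5 CPM for *Arid1a* KO under vehicle, and at 151 and 147 CPM for WT and 126 and 127 CPM for *Arid1a* KO under JSH-23. It was therefore lowest where *Txnip* was highest. *Mlxip* differed by -0.21 on the log2 scale between genotypes with vehicle (SE 0.039, edgeR adjusted p = 4.35e-06). With JSH-23 it was 0.48 higher in *Arid1a* KO (SE 0.037, edgeR adjusted p = 1.30e-18) and 0.49 higher in WT tumors (SE 0.037, edgeR adjusted p = 3.99e-19), each under 1.5-fold. The interaction was -0.02 (95% interval -0.12 to 0.09, edgeR adjusted p = 0.825).

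*Mlx* (chr11:101086707-101092207), the obligate partner of MondoA and ChREBP, was at 25.2 and 25.7 CPM for WT and 33.4 and 33.5 CPM for *Arid1a* KO under vehicle, and at 28.6 and 31.6 CPM for WT and 34.8 and 36.1 CPM for *Arid1a* KO under JSH-23. In CPM both *Arid1a* KO groups lay above both WT groups. In TPM the genotypes overlapped with JSH-23, at 27.5 and 30.3 for WT and 29.4 and 30.2 for *Arid1a* KO. The difference between genotypes was 0.39 with vehicle (SE 0.074, edgeR adjusted p = 6.32e-06) and 0.24 with JSH-23 (SE 0.071, edgeR adjusted p = 0.00381), under 1.5-fold in each case. Over all alternative ways of processing, the difference with JSH-23 ran from 0.04 to 0.31. In *Arid1a* KO tumors the difference with JSH-23 was 0.08 (95% interval -0.05 to 0.22, edgeR adjusted p = 0.272), and it turned negative when scaled to library size alone or taken from TPM values. *Psmc3ip* overlaps *Mlx* on the opposite strand and had 94 to 178 counts per sample. *Mlxipl* (chr5:135089890-135139768) was close to undetected, with 0 and 2 counts in WT and 5 and 9 counts in *Arid1a* KO tumors with vehicle, and 3 and 1 counts in each genotype with JSH-23; it did not pass the filter on low counts and no fold change is given. At this depth a difference in *Mlxipl* was not detectable.

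The thioredoxins were higher with JSH-23 in both genotypes. *Txn1* (chr4:57943373-57956411), the cytosolic and nuclear binding partner of the Txnip protein, was at 247 and 256 CPM for WT and 212 and 199 CPM for *Arid1a* KO under vehicle. With JSH-23 it was at 307 and 298 CPM for WT and at 381 and 383 CPM in *Arid1a* KO tumors, the reverse order of the genotypes. *Txn1* rose with JSH-23 by 0.90 on the log2 scale in *Arid1a* KO tumors (SE 0.026, edgeR adjusted p = 2.81e-42), while the change of 0.27 in WT tumors was under 1.5-fold (SE 0.027, edgeR adjusted p = 7.37e-14). The difference between these effects was 0.63 (SE 0.037, edgeR adjusted p = 9.90e-24). It dropped under 1.5-fold when counts were scaled to library size alone (0.53) or with TPM values (0.43), the direction being kept.

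By length-corrected level *Txn1* came second among the 10 genes, at 647 TPM on average against 816 TPM for *Txnip*, with *Txn1* between 480 and 783 TPM and *Txnip* between 407 and 1604 TPM over the samples; *Txn1* was above *Txnip* in every JSH-23 sample and below it in every vehicle sample. *Txn2* (chr15:77915051-77928994), the mitochondrial form, was at 67.6 and 64.7 CPM for WT and 77.2 and 72.6 CPM for *Arid1a* KO under vehicle, and at 88.6 and 91.3 CPM for WT and 96.7 and 105 CPM for *Arid1a* KO under JSH-23. It was 0.43 higher with JSH-23 in *Arid1a* KO (edgeR adjusted p = 6.29e-14) and 0.44 higher in WT tumors (edgeR adjusted p = 1.19e-12), both under 1.5-fold. Between genotypes with JSH-23 the difference was 0.16 (edgeR adjusted p = 9.48e-04), and it turned to slightly negative values with TPM.

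Besides *Txnip*, 8 of the 9 related genes were tested. In *Arid1a* KO against WT tumors with vehicle 2 of the 8 were called, *Arrdc3* and *Arrdc4*, both higher, where 12.6% of all tested genes were called, 7.48% higher and 5.16% lower. With JSH-23 in *Arid1a* KO tumors 4 of the 8 were called, *Arrdc2* and *Txn1* higher and *Arrdc3* and *Arrdc4* lower, against 26.0% of all genes (9.1% higher and 16.9% lower). In WT tumors JSH-23 left 1 call, *Arrdc2* (higher; background 15.8%, with 5.55% higher and 10.2% lower), and with JSH-23 the genotypes differed in 1, *Arrdc2* (lower; background 8.71%, with 3.74% higher and 4.97% lower). The interaction was called for 3, *Arrdc3* and *Arrdc4* negative and *Txn1* positive, against 9.07% of all genes (3.3% positive and 5.76% negative). By adjusted p alone 8, 7, 6, 6 and 5 of the 8 passed in these 5 comparisons, where 50.5%, 67.8%, 55.8%, 47.0% and 38.4% of all genes did. Of the genes called with JSH-23 in *Arid1a* KO tumors 35.0% were higher; the share was 22.5% after scaling to library size alone, which put the median of all genes at -0.13, and 12.8% with log2(TPM + 1), which put it at -0.20. The corresponding shares were 42.9%, 29.6% and 15.9% for the genotypes with JSH-23 (medians -0.01, -0.09 and -0.16) and 36.5%, 18.8% and 10.6% for the interaction (medians -0.0041, -0.11 and -0.17). A biological coefficient of variation fixed at 0.2 ended the calls of *Arrdc3* and *Arrdc4* between genotypes with vehicle, of *Arrdc2* between genotypes with JSH-23, and of the 3 interactions.

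The other known targets of MondoA and ChREBP split in their direction. Of 16 genes of carbohydrate response, 12 were tested. In *Arid1a* KO tumors with vehicle 2 were called higher and 4 lower, against 7.48% and 5.16% of all tested genes. With JSH-23 in these tumors 5 were called higher and 2 lower, against 9.1% and 16.9%. The median log2 differences were -0.02 and 0.40 (all genes, 0.00 and -0.02). *Klf10*, a transcriptional repressor induced by glucose, was at 115 ± 0.733 CPM (SD, n = 2) for WT and 217 ± 3.22 CPM for *Arid1a* KO under vehicle, and at 109 ± 2.97 and 120 ± 4.20 CPM under JSH-23. It thus had the shape seen for *Arrdc4*, with log2 changes of 0.91 between genotypes with vehicle (edgeR adjusted p = 8.95e-36) and -0.86 with JSH-23 in *Arid1a* KO (edgeR adjusted p = 1.74e-35), and an interaction of -0.78 (edgeR adjusted p = 5.11e-22). *Thrsp*, a regulator of lipid synthesis, was called in the same directions, but on 1 to 40 counts per sample, and DESeq2 did not call it.

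The 4 genes that fell with vehicle, *Fasn*, *Gpd1*, *Elovl6* and *Tkfc*, were among the 5 that rose with JSH-23 in *Arid1a* KO tumors, both comparisons sharing the *Arid1a* KO vehicle samples. *Fasn*, which encodes fatty acid synthase, was at 367 ± 1.37 CPM (SD, n = 2) for WT and 236 ± 7.41 CPM for *Arid1a* KO under vehicle, and at 492 ± 5.61 and 410 ± 4.42 CPM under JSH-23. Its log2 change was -0.64 between genotypes with vehicle (edgeR adjusted p = 1.01e-34) and 0.79 with JSH-23 in *Arid1a* KO tumors (edgeR adjusted p = 1.23e-41). *Gpd1*, the cytosolic glycerol-3-phosphate dehydrogenase, went from 38.9 ± 2.87 to 20.2 ± 2.17 CPM between genotypes with vehicle (-0.94, edgeR adjusted p = 8.27e-17) and to 37.3 ± 1.02 CPM with JSH-23 in *Arid1a* KO tumors (0.88, edgeR adjusted p = 3.15e-16). The fatty acid elongase *Elovl6* (-0.73 and 0.70) and the fructose-metabolizing kinase *Tkfc* (-0.65 and 0.77), named after their values were seen, were called in both comparisons. *Acaca*, which encodes acetyl-CoA carboxylase, was the other gene called with JSH-23 (0.65), and differed by -0.07 between genotypes with vehicle (edgeR adjusted p = 0.111). With TPM values the rises of *Fasn*, *Elovl6*, *Tkfc* and *Acaca* with JSH-23 went below 1.5-fold with their direction kept, as did that of *Acaca* (0.53) after scaling to library size alone. *Hk2*, hexokinase 2, which makes glucose 6-phosphate, differed by 0.15 and -0.27.

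**Figure D3:**
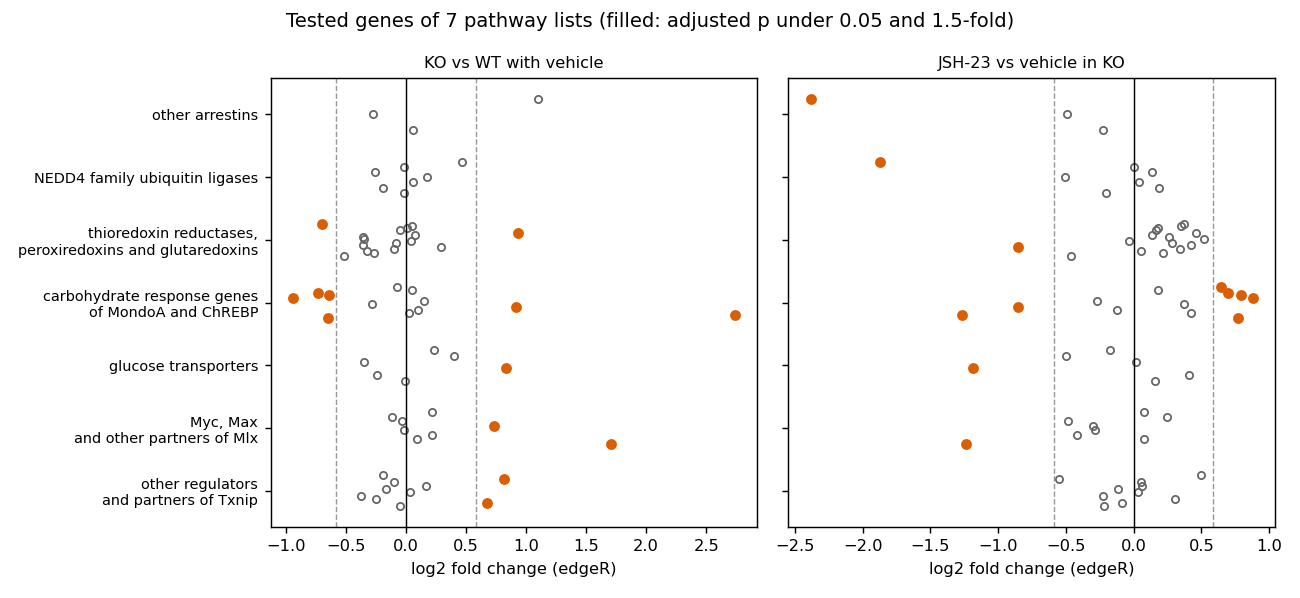
Log2 fold change (edgeR) of the tested genes of 7 lists around *Txnip*, in *Arid1a* KO against WT tumors with vehicle (left) and for the JSH-23 effect in *Arid1a* KO tumors (right), 1 point per gene, filled where the adjusted p was under 0.05 and the change at least 1.5-fold. The carbohydrate response genes held filled points on both sides, 2 higher and 4 lower on the left and 5 higher and 2 lower on the right. Of all tested genes 12.6% (left) and 26.0% (right) met the same rule.

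Of the genes of the thioredoxin and glutaredoxin systems, all 16 were tested, with median log2 differences of -0.09 between genotypes with vehicle and 0.24 with JSH-23 in *Arid1a* KO. The JSH-23 differences depended on the scaling. With log2(TPM + 1), which put the median of all genes at -0.20, those of *Glrx3*, *Glrx5*, *Prdx1*, *Txnrd1* and *Txnrd2* turned from positive to negative. With vehicle 2 of the 16 were called, against 12.6% of all genes, 1 in each direction, namely *Nxn* (nucleoredoxin, 0.93, edgeR adjusted p = 0.0169), which neither DESeq2 nor limma on log2(TPM + 1) called, and *Glrx* (glutaredoxin, -0.70, edgeR adjusted p = 6.33e-13). With JSH-23 in *Arid1a* KO tumors 1 of the 16 was called, against 26.0% of all genes, *Srxn1* (sulfiredoxin, -0.85, edgeR adjusted p = 3.40e-24), from 77.9 ± 1.48 to 43.2 ± 1.06 CPM (SD, n = 2). *Txnrd1*, the reductase that recycles thioredoxin 1, was at 132 ± 1.22 CPM for WT and 106 ± 3.63 CPM for *Arid1a* KO under vehicle, a difference of -0.32 (edgeR adjusted p = 8.49e-12) that was under 1.5-fold, and at 134 ± 1.89 and 110 ± 0.337 CPM under JSH-23.

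Of 9 NEDD4 family ligases 7 were tested (medians -0.02 and 0.00). Between genotypes with vehicle 3 passed the adjusted p, against 50.5% of all genes, each under 1.5-fold. With JSH-23 1 of the 7 was called in *Arid1a* KO tumors, against 26.0% of all genes, and 1 in WT tumors, against 15.8%. It was *Hecw2* in both, at -1.87 in *Arid1a* KO (edgeR adjusted p = 0.000226) on 8 to 34 counts per sample. In WT its change was -1.59 (edgeR adjusted p = 0.00689) on 4 to 25 counts per sample. Neither was called with limma on log2(TPM + 1), where the values were -0.27 and -0.18. *Nedd4* differed by -0.26 with vehicle (edgeR adjusted p = 5.31e-25) and *Smurf1* by -0.51 with JSH-23 in *Arid1a* KO tumors (edgeR adjusted p = 1.87e-18). *Wwp2*, another ligase of this family, differed by -0.02 with vehicle (edgeR adjusted p = 0.827), a value that turned positive when scaled to library size alone, and by -0.20 with JSH-23 in *Arid1a* KO (edgeR adjusted p = 0.00185). Of 5 other arrestins 3 were tested (medians 0.06 and -0.49), among them *Arrb1*, β-arrestin 1, which fell with JSH-23 in WT tumors from 725 ± 0.619 to 448 ± 1.90 CPM (SD, n = 2), a log2 change of -0.69 (edgeR adjusted p = 2.70e-41). In *Arid1a* KO tumors its change was -0.49 (edgeR adjusted p = 3.51e-33), under 1.5-fold. There 1 of the 3 arrestins was called, against 26.0% of all genes. It was *Arr3* (-2.38, edgeR adjusted p = 0.000559) at 3 to 21 counts per sample, which limma on log2(TPM + 1) did not call (-0.43). *Arrb2*, β-arrestin 2, differed by 0.06 with vehicle (edgeR adjusted p = 0.494) and by -0.22 with JSH-23 in *Arid1a* KO (edgeR adjusted p = 0.00228).

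Of 11 glucose transporters 6 were tested (medians 0.11 and -0.08). Between genotypes with vehicle and with JSH-23 in *Arid1a* KO 1 of the 6 was called, against 12.6% and 26.0% of all genes. *Slc2a6* alone was called, going from 10.8 ± 0.574 CPM (SD, n = 2) in WT to 19.2 ± 1.36 CPM for *Arid1a* KO under vehicle (0.83, edgeR adjusted p = 4.77e-10) and to 8.44 ± 0.474 CPM with JSH-23 in *Arid1a* KO (-1.18, edgeR adjusted p = 1.06e-15), with an interaction of -0.78 (edgeR adjusted p = 9.81e-05). *Slc2a1*, the main transporter of proliferating cells and a cargo of Txnip, differed by 0.23 with vehicle (edgeR adjusted p = 4.27e-18) and by -0.17 with JSH-23 in *Arid1a* KO tumors (edgeR adjusted p = 2.34e-13). *Slc2a4*, the insulin-responsive transporter GLUT4, differed by 0.40 with vehicle (edgeR adjusted p = 0.00719) and by -0.50 with JSH-23 in *Arid1a* KO (edgeR adjusted p = 0.000400). For *Slc2a8*, which encodes GLUT8, the differences were -0.24 (edgeR adjusted p = 0.00229) and 0.41 (edgeR adjusted p = 8.98e-08).

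Of 10 factors of the Myc and Max network, which shares Mlx and the E-box with MondoA, 8 were tested (medians 0.16 and -0.29). Between genotypes with vehicle 2 were called, with JSH-23 in *Arid1a* KO 1 and for the interaction 2. Of all genes 12.6%, 26.0% and 9.07% were called in these comparisons. *Myc* was at 16.9 ± 0.489 CPM (SD, n = 2) for WT and 54.9 ± 0.507 CPM for *Arid1a* KO under vehicle, and at 12.9 ± 0.609 and 23.3 ± 1.52 CPM under JSH-23. It rose by 1.70 in *Arid1a* KO tumors with vehicle (edgeR adjusted p = 9.44e-31) and fell by 1.24 with JSH-23 in these tumors (edgeR adjusted p = 8.81e-26). Whether reads of the MYC transgene were counted on the mouse gene is not given in the sources used here. *Mxd1*, a partner of Max that represses Myc targets, rose in *Arid1a* KO tumors with vehicle (0.73, edgeR adjusted p = 1.77e-09), and *Max* differed by 0.22. *Mnt*, another repressive partner of Max, differed by -0.03 with vehicle (edgeR adjusted p = 0.534) and by -0.48 with JSH-23 in *Arid1a* KO (edgeR adjusted p = 5.81e-18), under 1.5-fold. The interaction was called for *Myc* (-0.85) and for *Mxd4* (-0.59), the latter just past 1.5-fold and not with DESeq2 or its scaling.

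Of 12 other regulators and partners of Txnip 10 were tested (medians -0.07 and -0.02). In *Arid1a* KO tumors with vehicle 2 were called, both higher, against 12.6% of all genes. *Ddit4* (REDD1), a stress-induced inhibitor of mTORC1 that binds the Txnip protein, was at 687 ± 13.2 CPM (SD, n = 2) for WT and 1211 ± 10.3 CPM in *Arid1a* KO tumors (0.82, edgeR adjusted p = 2.30e-50), and *Prkaa2*, a catalytic subunit of AMPK, which marks Txnip for degradation, differed by 0.68 (edgeR adjusted p = 2.76e-12). With JSH-23 in *Arid1a* KO tumors 6 of the 10 passed the adjusted p, against 67.8% of all genes, each under 1.5-fold. *Ddit4* was at 828 ± 6.84 CPM, a log2 difference of -0.55 (edgeR adjusted p = 3.69e-41). *Cops5* (Jab1), a subunit of the COP9 signalosome, differed by -0.19 with vehicle (edgeR adjusted p = 0.00194) and by 0.50 with JSH-23 in *Arid1a* KO (edgeR adjusted p = 7.08e-14). *Nr3c1*, the glucocorticoid receptor, was not tested because of its low counts.

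The genes whose pattern over the 8 samples lay nearest to *Txnip* were found among 9190 genes averaging 10 CPM or more, by the Euclidean distance between log2 CPM profiles centred on their mean. The nearest 8 were, in order, *Gm15441* (distance 0.12), *Nupr1* (0.21), *Ier2* (0.33), *Lif* (0.35), *Ccne2* (0.38), *E2f8* (0.38), *Brms1l* (0.41) and *Akna* (0.43). *Nupr1*, a stress-induced chromatin protein, was at 39.5 ± 2.95 CPM (SD, n = 2) for WT and 82.5 ± 0.403 CPM for *Arid1a* KO under vehicle, and at 25.2 ± 0.115 and 27.1 ± 0.305 CPM under JSH-23. *Lif*, a cytokine of the interleukin 6 family, had 53.6 ± 0.569, 95.1 ± 0.655, 31.7 ± 0.608 and 35.5 ± 1.09 CPM in the same order of groups. *Arrdc3* ranked 39 and *Arrdc4* 158 by this distance, whereas *Arrdc2* ranked 9121 and *Txn1* 8743, near the far end. Genes chosen for likeness share the groups by construction, and the distances are descriptive.

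**Figure D4:**
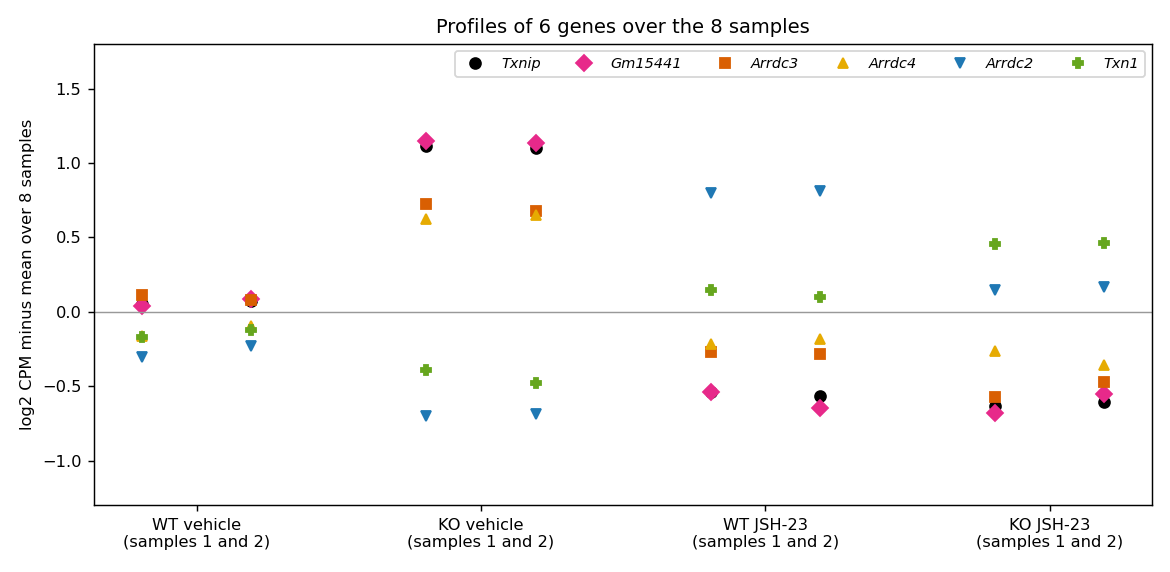
Log2 CPM minus the gene's mean over the 8 samples for *Txnip*, its antisense gene *Gm15441*, *Arrdc3*, *Arrdc4*, *Arrdc2* and *Txn1*, with 1 point per sample. *Gm15441* lay beside *Txnip* in each group (distance 0.12), *Arrdc3* and *Arrdc4* had the same high group, and *Arrdc2* and *Txn1* were lowest in *Arid1a* KO tumors with vehicle.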

How the data were processed

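The 8 RNA-seq samples (sorted EpCAM+ CD45- cells of Myc-CaP tumors) fell into 4 groups of 2 by their labels. The deposited counts are whole numbers of reads per gene symbol, without normalization, made by the authors with strand-specific HTSeq counting on mm10; the methods name TopHat2 as the aligner, whereas the submitters' processing notes name HISAT2. The deposited TPM values are those counts per gene length, scaled to a common sum. Genes with near-identical copies or antisense partners may share reads.

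Genes were filtered with filterByExpr, which left 13921 of 39089, and scaled by TMM (factors 0.949 to 1.03). Using edgeR 4.0.16 in R 4.3.3, the quasi-likelihood fit had 4 group means over 8 samples. Calls required a Benjamini-Hochberg adjusted p under 0.05 over all tested genes and 1.5-fold. CPM values use the TMM-scaled library sizes. Scripts were tested on simulated data. Total counts ranged from 16401581 to 21972231, and limits set by them cover counting error only.

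The genes followed and the gene lists were chosen with earlier results of these data known. Named from each list were the 3 tested genes of at least 1 CPM with the largest change between genotypes with vehicle or with JSH-23 in *Arid1a* KO, plus *Myc*, *Max*, *Slc2a1*, *Txnrd1*, *Hk2*, *Nr3c1* and *Ddit4*, and the 8 genes nearest to *Txnip*; *Acaca*, *Arr3*, *Elovl6*, *Hecw2*, *Mxd4*, *Thrsp* and *Tkfc* were added after their values were seen. Alternatives were DESeq2 1.42.0, other scalings, no filter or 10 counts in every sample, limma 3.58.1 with log2-transformed TPM (pseudocount 1 or 0.1), a replicate block, a fixed biological coefficient of variation (BCV) of 0.1 or 0.2, adjusted p alone, and leaving out each sample.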

Additional observations from a re-analysis of the deposited data

Results flagged for a closer look

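For 3 genes related to *Txnip*, the 2 genotypes responded to JSH-23 to an unequal degree, by the edgeR interaction term and a difference of at least 1.5-fold. By the same rule 9.07% of all tested genes were called. The JSH-23 effect in *Arid1a* KO minus that in WT was -0.85 on the log2 scale for *Arrdc3*, -0.88 for *Arrdc4* and 0.63 for *Txn1*. In each gene both *Arid1a* KO samples with JSH-23 lay on the same side of both with vehicle. That held for all 8 tested genes related to *Txnip*, also for *Mlx*, which was not called, so it does not set these 3 apart. The vehicle and JSH-23 samples are separate, so no sample was followed across treatment. The WT effects (-0.37, -0.07 and 0.27) had the same sign as those in *Arid1a* KO at a smaller size. The 3 genes were called whichever 1 sample was left out, and the difference for *Txn1* fell under 1.5-fold with library size alone or TPM values.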

How the results depend on the processing

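Every direction of *Txnip* was kept under every alternative, and 19 of its 94 values moved by more than the spread between samples. For the other genes, 729 of 752 recomputed fold changes kept their direction and stayed called or not called. They count as kept even where the adjusted p alone no longer passed. Of the rest, 10 became weaker, those of *Arrdc3*, *Arrdc4*, *Arrdc2* and *Txn1*, and 13 changed sign, none of which had been called. The cause was not tested. For *Mlx* with JSH-23 in *Arid1a* KO (0.08) the value was -0.029 after scaling to library size alone and -0.15 with either TPM pseudocount, and for *Txn2* between genotypes with JSH-23 (0.16) it was -0.030 with either pseudocount. Leaving out a sample in turn gave -0.056 to 0.0047 for *Arrdc1* with JSH-23 in WT, -0.060 to 0.0012 for *Arrdc1* between genotypes with JSH-23, and interactions of -0.062 to 0.032 for *Mlxip* and -0.057 to 0.052 for *Txn2*. With limma on log2(TPM + 0.1) the last 3 went to -0.22 (adjusted p = 0.000846, 0.0287 and 0.0267), under 1.5-fold. The comparisons follow in the order *Arid1a* KO against WT with vehicle, JSH-23 in *Arid1a* KO, JSH-23 in WT, *Arid1a* KO against WT with JSH-23, and interaction. Genes called numbered 1760, 3625, 2197, 1212 and 1262. A BCV fixed at 0.2 left 614, 2144, 809, 258 and 47, and a BCV of 0.1 left 747 for the interaction. By adjusted p alone 7032, 9442, 7774, 6536 and 5346 passed. Of the 8 genes related to *Txnip*, 2, 4, 1, 1 and 3 were called, and at a BCV of 0.2 the comparisons of genotypes and the interaction had 0. By adjusted p alone 8, 7, 6, 6 and 5 of the 8 passed. These numbers fell to 3, 6, 4, 1 and 3 with the BCV fixed at 0.1, and to 0, 4, 1, 0 and 0 at 0.2. Leaving out each sample in turn gave 1580 to 1820, 3435 to 3787, 1948 to 2235, 1073 to 1215 and 1159 to 1261 genes, with 1 to 2, 4, 1, 1 and 3 of the 8; a group left with 1 sample was assumed to vary like the others. With the replicate number as a block, 1750, 3612, 2187, 1200 and 1269 genes were called and the 8 gave 2, 4, 1, 1 and 3. Deviations from the group mean correlated at -0.096 to 0.040 between samples sharing a number. With so small a spread between samples, these values cannot tell whether samples of the same number shared a batch. Depth limited *Mlxipl*.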
